A study of Mus musculus with 8 samples.

Results

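The genes described here are 36 genes of the G2 phase and mitosis, chosen by gene symbol from a list that was drawn up with earlier results of these libraries known. The rule itself uses no measured value. All 36 were among the 24421 genes of the count table, and all 36 passed the filter on low counts that left 15917 tested genes. Mouse long-term hematopoietic stem cells (LT-HSCs) were sorted from bone marrow as lineage-negative, CD117-positive and Sca1-positive cells with high CD150 and low CD48, and their RNA was sequenced. A green fluorescent reporter of the gene Vwf (von Willebrand factor) divided them into a Vwf+ and a Vwf- fraction. Both fractions were taken from wild-type (WT) mice and from heterozygotes that carry 1 changed copy of Dnmt3a, a DNA methyltransferase gene (Dnmt3a+/-). This gave 4 groups, namely Vwf+ WT, Vwf+ Dnmt3a+/-, Vwf- WT and Vwf- Dnmt3a+/-, each with 2 libraries. All mice were 10 to 12 months old and carried the reporter used in the sort. Each library was made from a pool of 3 to 4 mice, so single mice were not resolved and the p-values measure the spread between pools. In every group replicate 1 was male and replicate 2 was female. The promoter or agent behind the changed Dnmt3a allele and the part of the gene that it lacks are not given in the sources used here.

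A cell enters mitosis when cyclin B activates the kinase CDK1, and it leaves mitosis when the anaphase-promoting complex marks cyclin B and other proteins for degradation. In between, chromosomes condense, kinetochores attach them to the spindle, a checkpoint holds the cell until attachment is complete, and the central spindle and a ring of actin divide the cytoplasm. Transcripts of these genes are high in G2 and mitosis and low in resting cells, and adult LT-HSCs are known as mostly resting cells that divide seldom. Many of these genes carry a promoter element called the cell cycle genes homology region (CHR), which is bound in resting cells by the DREAM repressor complex and in G2 by complexes with B-MYB and FOXM1. CCAAT boxes, bound by NF-Y, often stand upstream of it.

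The total count ran from 21809278 to 39402418 per library. The Vwf transcript was at 1034 to 1409 CPM (counts scaled to a common library total) in the 4 Vwf+ libraries and at 98.9 to 116 CPM in the 4 Vwf- libraries, without overlap. Dnmt3a was at 175 to 251 CPM in the 4 WT libraries and at 179 to 361 CPM in the 4 libraries labelled Dnmt3a+/-. Dnmt3a+/- minus WT came to 0.38 ± 0.16 (log2 ± SE, edgeR adjusted p = 0.998), so the gene-level count does not show the heterozygous allele and is no check of the genotype labels. Stem cell genes were present throughout, with Kit at 815 to 1033 CPM. Slamf1 (CD150) was at 75.6 to 87.1 CPM in Vwf+ and 20.1 to 26.6 CPM in Vwf- libraries. Cd48, for which low cells were sorted, was at 0.0861 to 3.19 CPM.

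The CHR is a well known shared element of these genes, and their promoters were searched for its letters. RefSeq promoter windows on GRCm38.p6, from 250 bases before to 50 bases after an annotated start, were matched for 31 of the 36 genes. The others were Cdca2, Aurkb, Kif20a, Cdc25c and Tpx2. The CHR was searched as TTTGAA and the CCAAT box as CCAAT, on both strands. Of the 31 genes, 25 (80.6%) held a CHR match in the window, against 14.6% of the 11795 tested genes with a window and 20.2% of all 27025 genes with one. Within 50 bases of the start the share was 22 of 31 (71.0%), against 3.79% of tested genes. A CCAAT match was present in 24 of 31 (77.4%), against 42.03% of tested genes. Of the 31, 17 (54.8%) had 2 or more, against 15.6% of tested genes. Both a CHR match near the start and a CCAAT match were found in 19 of 31 (61.3%), against 1.72% of tested genes. E2F core letters (TTCCCGC or TTGGCGC, both strands) were in 6 of 31 windows (19.4%) and in 13.05% of those of tested genes. Matches are letters in a window, not measured binding sites.

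**Figure D1:**
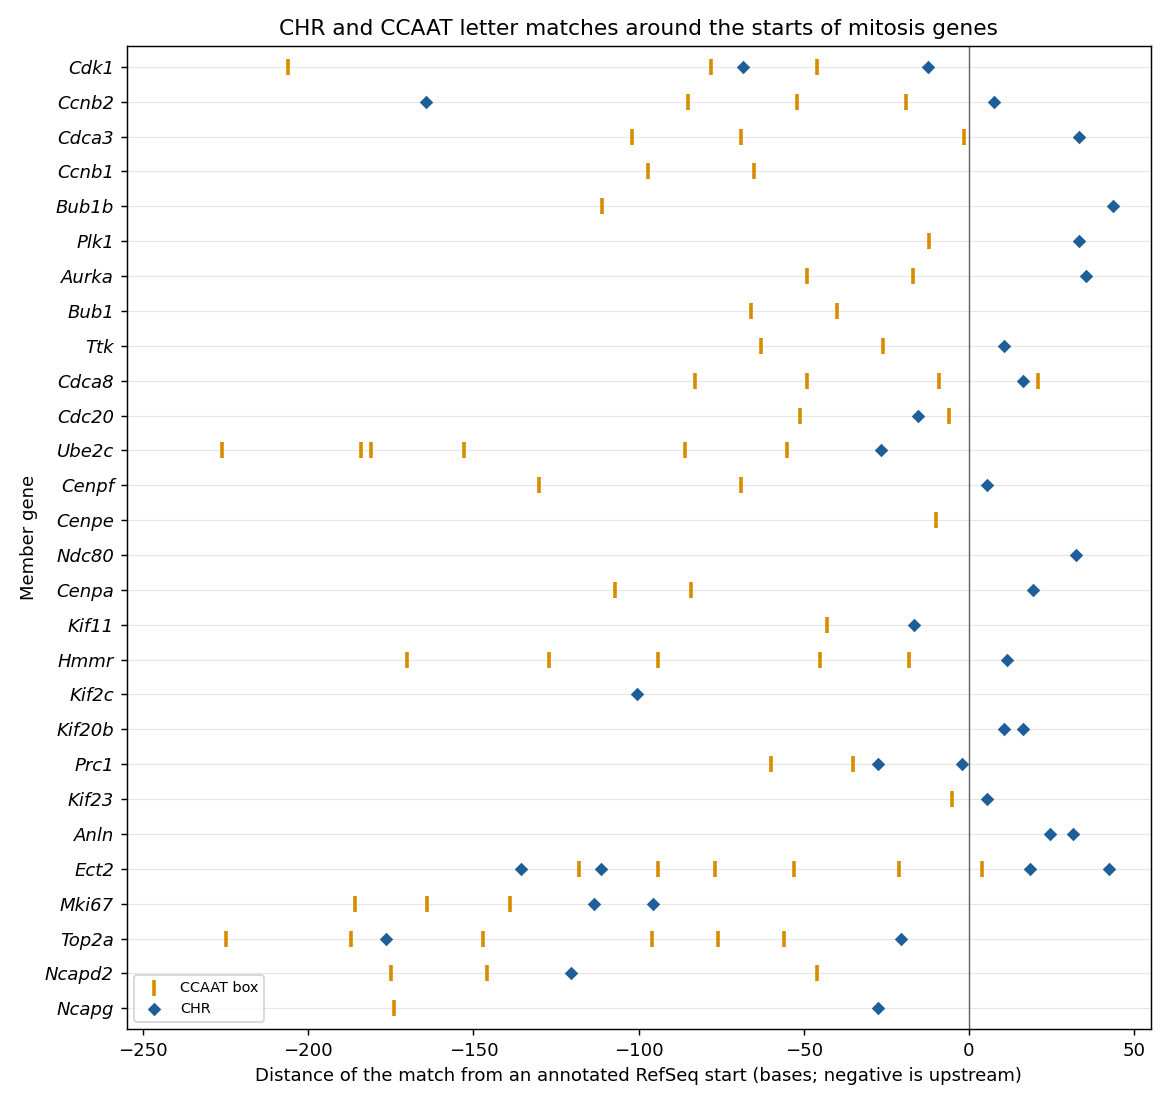
Positions of CHR and CCAAT letter matches (diamonds and bars) relative to annotated RefSeq starts, in bases, for the 28 member genes with either match. Genes with 2 windows are drawn over both. CHR matches gather around the start in 22 genes, and most CCAAT matches lie upstream of them.

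The stretches below run from 150 bases before to 30 bases after a start and are given for the 5 genes with the smallest p-values between fractions whose CHR match lies in that stretch. They show how the shared letters sit in genes that differ in the number of CCAAT boxes. They are RefSeq sequence of GRCm38.p6, read 5′ to 3′ on the strand of the gene, with CHR and CCAAT letters of either strand in capitals. Ect2 lies on the minus strand (chr3:27153825-27154004), as does Kif23 (chr9:61946770-61946949). Kif20b (chr19:34922208-34922387), Ttk (chr9:83834539-83834718) and Ncapg (chr5:45669775-45669954) lie on the plus strand.
Ect2: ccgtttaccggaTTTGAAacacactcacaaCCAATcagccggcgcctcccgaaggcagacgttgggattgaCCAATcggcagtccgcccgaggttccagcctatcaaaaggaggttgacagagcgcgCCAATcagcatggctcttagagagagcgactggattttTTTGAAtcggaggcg
Kif23: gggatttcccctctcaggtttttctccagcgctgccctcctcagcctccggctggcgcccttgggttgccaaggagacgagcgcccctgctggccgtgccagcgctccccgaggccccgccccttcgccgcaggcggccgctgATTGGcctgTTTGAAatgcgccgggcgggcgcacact
Kif20b: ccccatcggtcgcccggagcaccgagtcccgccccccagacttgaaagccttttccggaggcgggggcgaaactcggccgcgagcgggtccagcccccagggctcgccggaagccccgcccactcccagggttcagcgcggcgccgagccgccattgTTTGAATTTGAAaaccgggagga
Ttk: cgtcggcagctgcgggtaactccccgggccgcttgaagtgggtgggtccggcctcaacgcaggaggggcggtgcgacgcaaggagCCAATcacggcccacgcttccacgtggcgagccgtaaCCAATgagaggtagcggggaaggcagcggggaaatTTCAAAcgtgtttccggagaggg
Ncapg: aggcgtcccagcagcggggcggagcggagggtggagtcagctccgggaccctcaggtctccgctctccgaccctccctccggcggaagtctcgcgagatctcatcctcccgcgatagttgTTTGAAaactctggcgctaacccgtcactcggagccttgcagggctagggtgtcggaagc
Ect2 has CHR matches that begin at positions -138 and 16, with 3 CCAAT boxes between them. Kif23 has 1 match at position 3, just after a CCAAT box on the opposite strand. Kif20b holds 2 matches in a row, at positions 8 and 14, and no CCAAT box. Ttk has its match on the opposite strand at position 8, and Ncapg has its own at position -30. Ndc80 also has a match on the opposite strand, at position 30, and no CCAAT box in its window.

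Every one of the 36 genes was lower in Vwf+ than in Vwf- cells and higher in female than in male pools, on the fitted averages. The median log2 difference of Vwf+ minus Vwf-, averaged over genotype, was -0.79 for the 36 genes and -0.01 for all tested genes. In the edgeR quasi-likelihood fit with 4 group means, 4 of the 36 genes passed an adjusted p of 0.05 as lower in Vwf+ cells, where 1.68% of all tested genes did. In that fit the spread within a group is the spread between its male and its female pool. With the replicate number, and so sex, as a block, 35 of 36 passed as lower, where 5.97% of all tested genes did, and the median was -0.75. Cdc25c was the exception, at -0.50 ± 0.22 with an adjusted p of 0.147. In bulk RNA, fewer cells in G2 and mitosis and less RNA of these genes per cell cannot be told apart.

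Female pools were higher than male pools by a median log2 difference of 0.88 over the 36 genes, from 0.44 in Cenpa to 1.22 in Ube2c. All 36 passed as higher in the edgeR fit of sex beside the 4 group means, with a largest adjusted p of 0.0367 in Ect2, where 5.62% of all tested genes passed as higher. With 1 library left out the median ran from 0.74 to 0.99, and Bub1, Cenpa, Ect2, Kif23 and Ndc80 did not pass in some of these fits. With library totals in place of TMM 33 passed (all but Bub1, Cenpa and Ect2), where 3.25% of all tested genes passed as higher. With upper quartiles 35 passed (all but Ect2), where 4.22% of all tested genes did. Sex and replicate number are the same column of the design and cannot be told apart.

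Levels are given below as CPM, the male pool before the female pool in each group. Compared per length as TPM, a unit that divides by transcript length, the mean over 8 libraries ran from 7.37 in Cdc25c to 131 in Top2a, with Mki67 at 124 and Ncapd2 at 92.1. Raw counts ran from 86 to 35276 per gene and library, so that counting error was small beside the spread between pools.

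**Figure D2:**
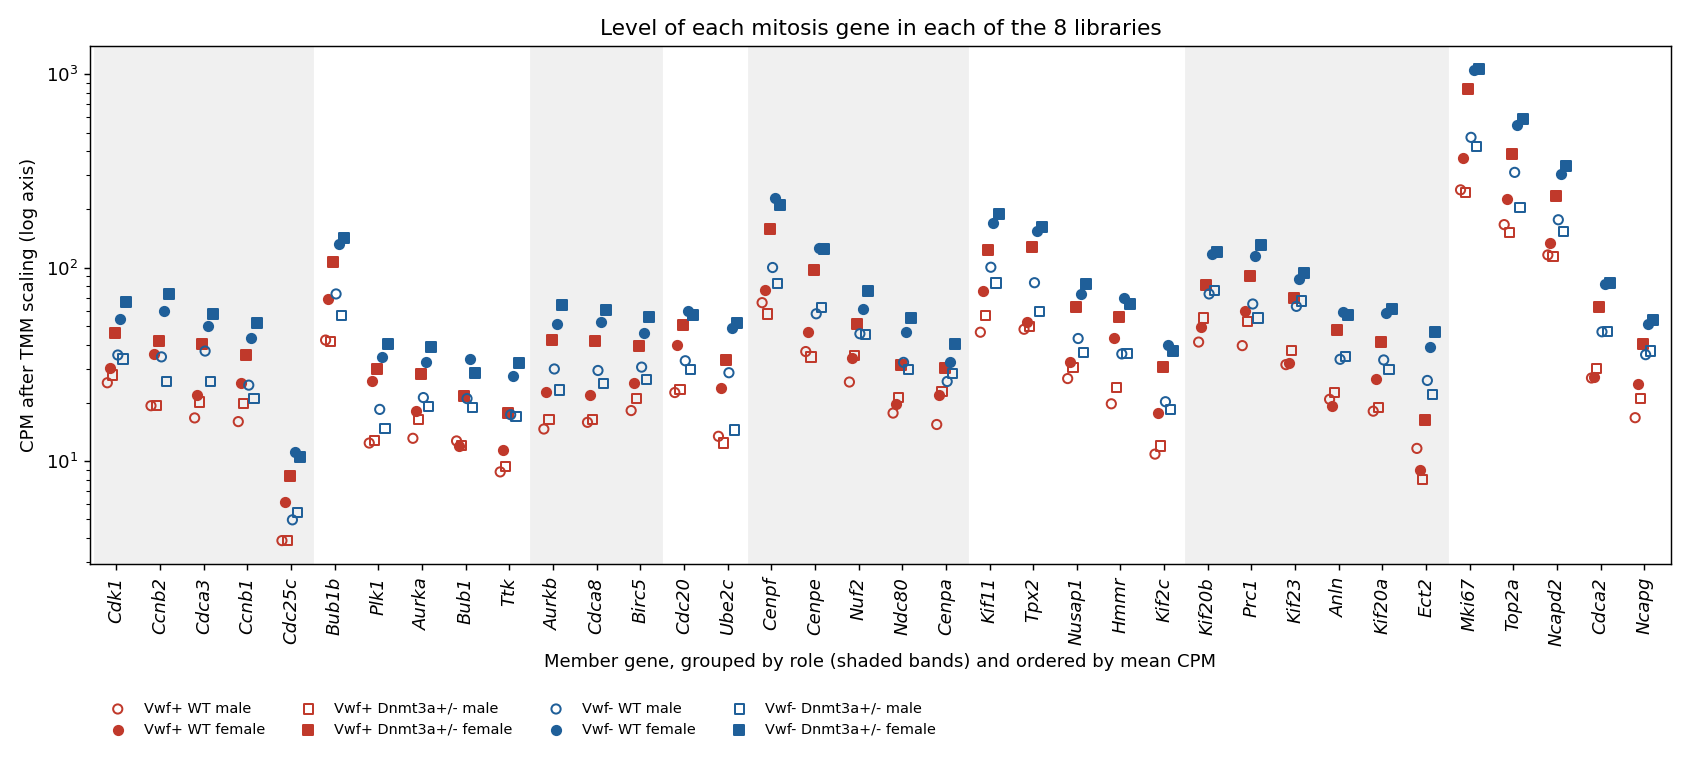
CPM after scaling (log axis) of the 36 genes in each of the 8 libraries. Color marks the fraction, shape the genotype, and filled symbols are female pools. In 34 of 36 genes the lowest library was a male Vwf+ pool and the highest a female Vwf- pool, an order met by 10.1% of all tested genes; the exceptions were Bub1 and Anln.

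Among the genes that switch mitosis on, Cdk1 encodes the kinase itself. Its level was 25.4 and 30.3 in Vwf+ WT, 27.8 and 45.8 in Vwf+ Dnmt3a+/-, 35.3 and 54.2 in Vwf- WT, and 33.7 and 66.3 in Vwf- Dnmt3a+/-. The B-type cyclins activate it. Ccnb1 was at 15.97 and 25.2 in Vwf+ WT, 19.9 and 35.3 in Vwf+ Dnmt3a+/-, 24.7 and 43.2 in Vwf- WT, and 21.1 and 51.6 in Vwf- Dnmt3a+/-. Ccnb2 was at 19.3 and 35.9 in Vwf+ WT, 19.3 and 41.7 in Vwf+ Dnmt3a+/-, 34.5 and 59.7 in Vwf- WT, and 25.7 and 72.96 in Vwf- Dnmt3a+/-. For both cyclins the 4 female pools lay above the 4 male pools, while the fractions overlapped. Ccnb2 had the highest mean TPM of these 5 genes, at 52.8. Its fraction difference was -0.73 ± 0.36 (adjusted p = 0.348) without the block and -0.71 ± 0.12 (adjusted p = 0.000219) with it. Cdc25c, the phosphatase that frees CDK1 of inhibitory phosphates, was the least abundant of the 36, at 3.87 and 6.16 in Vwf+ WT, 3.86 and 8.398 in Vwf+ Dnmt3a+/-, 4.95 and 11.1 in Vwf- WT, and 5.397 and 10.5 in Vwf- Dnmt3a+/-. It too was higher in all 4 female pools than in any male pool. Cdca3, an F-box-like protein tied to the breakdown of the CDK1 inhibitor Wee1, was at 16.7 and 21.9 in Vwf+ WT, 20.2 and 40.1 in Vwf+ Dnmt3a+/-, 37.01 and 49.96 in Vwf- WT, and 25.8 and 57.7 in Vwf- Dnmt3a+/-. The fraction differences of these 5 genes ran from -0.82 in Cdca3 to -0.53 in Cdc25c on the log2 scale, and the sex differences from 0.65 in Cdk1 to 1.08 in Ccnb2.

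Plk1, the polo-like kinase of centrosomes, spindle and cytokinesis, was at 12.4 and 26.01 in Vwf+ WT, 12.7 and 29.8 in Vwf+ Dnmt3a+/-, 18.5 and 34.5 in Vwf- WT, and 14.8 and 40.5 in Vwf- Dnmt3a+/-. Its sexes did not overlap, and its fold of Vwf- over Vwf+ in WT females, 1.33, was the smallest of the 36. The fraction difference of Plk1 was -0.42 ± 0.38 without the block (adjusted p = 0.685) and -0.42 ± 0.13 with it (adjusted p = 0.0317). Aurka, the kinase of spindle poles, was at 13.1 and 18.1 in Vwf+ WT, 16.3 and 28.2 in Vwf+ Dnmt3a+/-, 21.3 and 32.4 in Vwf- WT, and 19.2 and 38.6 in Vwf- Dnmt3a+/-. Ttk is a kinase that starts the spindle checkpoint, and it was at 8.77 and 11.4 in Vwf+ WT, 9.39 and 17.7 in Vwf+ Dnmt3a+/-, 17.3 and 27.6 in Vwf- WT, and 17.05 and 31.9 in Vwf- Dnmt3a+/-. Of these 5 genes it had the largest fraction difference, -1.002 ± 0.27 (adjusted p = 0.0645; with the block -0.99 ± 0.14, adjusted p = 4.08e-05). The checkpoint kinase gene Bub1 was at 12.7 and 11.97 in Vwf+ WT, 11.97 and 21.6 in Vwf+ Dnmt3a+/-, 21.02 and 33.6 in Vwf- WT, and 18.9 and 28.5 in Vwf- Dnmt3a+/-. Bub1b, whose product is part of the complex that restrains the anaphase-promoting complex, was at 42.2 and 68.4 in Vwf+ WT, 41.4 and 107 in Vwf+ Dnmt3a+/-, 73.1 and 133 in Vwf- WT, and 56.8 and 142 in Vwf- Dnmt3a+/-. Bub1b was the most abundant of the 5 per length, with a mean TPM of 47.7, and Bub1 the least, at 9.8. In Bub1 the Vwf+ WT pools went against the rest, the female pool being 0.94 times the male.

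The chromosomal passenger complex corrects faulty attachments and later acts at the midzone. Aurkb, its kinase, was at 14.6 and 22.7 in Vwf+ WT, 16.4 and 42.2 in Vwf+ Dnmt3a+/-, 29.9 and 51.2 in Vwf- WT, and 23.3 and 63.8 in Vwf- Dnmt3a+/-. Birc5 (survivin), which brings the complex to centromeres, was at 18.2 and 25.2 in Vwf+ WT, 20.96 and 39.1 in Vwf+ Dnmt3a+/-, 30.6 and 46.1 in Vwf- WT, and 26.5 and 55.6 in Vwf- Dnmt3a+/-. Cdca8 (borealin), which binds survivin, was at 15.8 and 22.05 in Vwf+ WT, 16.4 and 41.7 in Vwf+ Dnmt3a+/-, 29.4 and 52.6 in Vwf- WT, and 25.2 and 60.3 in Vwf- Dnmt3a+/-. All 3 had the same order of pools at the ends, with male Vwf+ WT lowest and female Vwf- Dnmt3a+/- highest. Their fraction differences were -0.84, -0.63 and -0.83 in that order, and their sex differences were 1.07, 0.76 and 0.99. With the block, all 3 passed as lower in Vwf+ cells.

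Cdc20 activates the anaphase-promoting complex and is the target of the spindle checkpoint. It was at 22.6 and 39.9 in Vwf+ WT, 23.3 and 50.5 in Vwf+ Dnmt3a+/-, 32.98 and 59.8 in Vwf- WT, and 29.6 and 56.8 in Vwf- Dnmt3a+/-. The 4 female pools of Cdc20 lay above the 4 male pools, and its fraction difference was the smallest of the 36, at -0.40 ± 0.31 (adjusted p = 0.615; with the block -0.41 ± 0.10, adjusted p = 0.0093). Ube2c, the ubiquitin-conjugating enzyme that works with that complex, was at 13.4 and 23.9 in Vwf+ WT, 12.4 and 33.2 in Vwf+ Dnmt3a+/-, 28.6 and 48.5 in Vwf- WT, and 14.4 and 51.6 in Vwf- Dnmt3a+/-. It had the largest sex difference of the 36, 1.22 ± 0.15 (edgeR adjusted p = 6.31e-05). The male Dnmt3a+/- pools of Ube2c stood close together at 12.4 and 14.4 CPM, where the male WT pools were at 13.4 and 28.6. By GENCODE M21, 22.8% of the exonic bases of Ube2c overlap Tnnc2 on the other strand, and the strand setting of the counting is not given in the sources used here.

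At the centromere and kinetochore, Cenpa encodes the histone variant that marks centromeres. It was at 15.4 and 21.8 in Vwf+ WT, 22.9 and 30.3 in Vwf+ Dnmt3a+/-, 25.8 and 32.4 in Vwf- WT, and 28.2 and 40.3 in Vwf- Dnmt3a+/-. Cenpa had the smallest sex difference of the 36, 0.44 ± 0.11 (edgeR adjusted p = 0.0176). Cenpe, a kinetochore motor, was at 36.8 and 46.2 in Vwf+ WT, 34.5 and 97.7 in Vwf+ Dnmt3a+/-, 57.7 and 126 in Vwf- WT, and 62.1 and 124 in Vwf- Dnmt3a+/-. Cenpf, a large protein of the outer kinetochore, was at 65.9 and 76.5 in Vwf+ WT, 57.6 and 159 in Vwf+ Dnmt3a+/-, 100.2 and 228 in Vwf- WT, and 82.96 and 211 in Vwf- Dnmt3a+/-. In both, the female Vwf+ Dnmt3a+/- pool lay above both male Vwf- pools. Ndc80 (chr17:71496100-71526857, minus strand) and Nuf2 encode partners in the complex that binds spindle microtubules. Ndc80 was at 17.7 and 19.8 in Vwf+ WT, 21.3 and 31.5 in Vwf+ Dnmt3a+/-, 32.3 and 46.4 in Vwf- WT, and 29.8 and 54.6 in Vwf- Dnmt3a+/-. Nuf2 was at 25.6 and 34.02 in Vwf+ WT, 34.95 and 50.8 in Vwf+ Dnmt3a+/-, 45.5 and 61.4 in Vwf- WT, and 45.3 and 75.6 in Vwf- Dnmt3a+/-. Each Vwf- pool of Ndc80 lay above the Vwf+ pool of its genotype and sex, but the fractions overlapped, since the female Vwf+ Dnmt3a+/- pool reached 31.5 CPM and the male Vwf- Dnmt3a+/- pool 29.8. Ndc80 passed in the fraction comparison without the block (-0.87 ± 0.22, 1.83-fold lower in Vwf+, edgeR adjusted p = 0.0462). It did not pass in 5 of the 8 such fits with 1 library left out, those without either Vwf+ WT, the male Vwf+ Dnmt3a+/- or either female Vwf- library, where the adjusted p reached 0.17. Nuf2 had -0.67 ± 0.20 there (adjusted p = 0.0926) and passed with the block (-0.66 ± 0.10, adjusted p = 8.1e-05). Their levels per length were near each other, with mean TPM of 30.5 and 41.0.

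Kif11 encodes the kinesin that pushes spindle poles apart. It was at 46.3 and 75.7 in Vwf+ WT, 56.6 and 123 in Vwf+ Dnmt3a+/-, 100.5 and 170.1 in Vwf- WT, and 83.4 and 189.8 in Vwf- Dnmt3a+/-. Kif2c, a kinesin that takes microtubules apart at their ends, was at 10.8 and 17.7 in Vwf+ WT, 11.9 and 30.4 in Vwf+ Dnmt3a+/-, 20.2 and 39.9 in Vwf- WT, and 18.5 and 36.97 in Vwf- Dnmt3a+/-. Tpx2 builds the spindle and activates the kinase encoded by Aurka. The level of Tpx2 was 47.99 and 52.3 in Vwf+ WT, 49.4 and 127 in Vwf+ Dnmt3a+/-, 83.6 and 154 in Vwf- WT, and 59.4 and 162 in Vwf- Dnmt3a+/-. Between sexes it barely differed in Vwf+ WT cells, at 1.09-fold, and differed most in the Dnmt3a+/- groups. Hmmr, which binds spindle microtubules, was at 19.7 and 43.1 in Vwf+ WT, 23.9 and 55.7 in Vwf+ Dnmt3a+/-, 35.8 and 69.9 in Vwf- WT, and 35.9 and 65.1 in Vwf- Dnmt3a+/-. Nusap1, another spindle microtubule binder, was at 26.7 and 32.6 in Vwf+ WT, 30.6 and 62.6 in Vwf+ Dnmt3a+/-, 42.99 and 72.7 in Vwf- WT, and 36.5 and 82.1 in Vwf- Dnmt3a+/-. Only Hmmr among these 5 had all female pools above all male pools. With the block, the fraction differences ran from -0.87 ± 0.10 in Kif11 (adjusted p = 4.33e-06) to -0.59 ± 0.10 in Hmmr (adjusted p = 0.000347).

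Genes of the central spindle and cytokinesis held 3 of the 4 genes that passed between fractions without the block, namely Ect2, Kif23 and Kif20b. Ect2 (chr3:27097222-27153878, minus strand) encodes the exchange factor that activates RhoA at the cleavage furrow. It was at 11.6 and 8.96 in Vwf+ WT, 7.98 and 16.3 in Vwf+ Dnmt3a+/-, 26.1 and 38.6 in Vwf- WT, and 22.1 and 46.4 in Vwf- Dnmt3a+/-. This was the sole member in which all 4 Vwf+ libraries lay below all 4 Vwf- libraries, an order met by 5.33% of all tested genes. Its group means were 10.3 ± 1.87 CPM (SD, n = 2) in Vwf+ WT, 12.1 ± 5.85 in Vwf+ Dnmt3a+/-, 32.4 ± 8.88 in Vwf- WT and 34.3 ± 17.2 in Vwf- Dnmt3a+/-. The difference was -1.57 ± 0.29 on the log2 scale, 2.98-fold lower in Vwf+ cells (edgeR adjusted p = 0.0103), and -1.53 ± 0.18 with the block (adjusted p = 3.39e-06). Without the female Vwf+ WT library and without the block, the adjusted p of Ect2 was 0.0563.

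Kif23 (chr9:61915905-61946774, minus strand) is the motor subunit of centralspindlin, the complex that recruits the Ect2 protein. It was at 31.5 and 32.3 in Vwf+ WT, 37.2 and 69.5 in Vwf+ Dnmt3a+/-, 63.1 and 87.7 in Vwf- WT, and 67.2 and 94.3 in Vwf- Dnmt3a+/-. Its fraction difference was -0.92 ± 0.20, 1.89-fold (edgeR adjusted p = 0.0259), and it did not pass without either Vwf+ WT or without the female Vwf- WT library (adjusted p up to 0.0933). Kif20b (chr19:34922361-34975745, plus strand), a kinesin of late cytokinesis, was at 41.2 and 49.05 in Vwf+ WT, 54.9 and 81.2 in Vwf+ Dnmt3a+/-, 73.1 and 118 in Vwf- WT, and 75.9 and 119.9 in Vwf- Dnmt3a+/-. It differed by -0.80 ± 0.20, 1.75-fold (edgeR adjusted p = 0.0459), and it did not pass without the 5 libraries named for Ndc80, each left out in turn (adjusted p up to 0.17). In both, each Vwf- pool lay above the Vwf+ pool of its genotype and sex, but the female Vwf+ Dnmt3a+/- pool lay above both male Vwf- pools. Kif20a, the kinesin that carries the passenger complex to the central spindle, was at 18.1 and 26.4 in Vwf+ WT, 18.9 and 41.01 in Vwf+ Dnmt3a+/-, 33.3 and 58.5 in Vwf- WT, and 29.7 and 61.3 in Vwf- Dnmt3a+/-. GENCODE M21 places 29.3% of its exonic bases over Cdc23 on the other strand. Prc1, which bundles the microtubules of the central spindle, was at 39.5 and 59.6 in Vwf+ WT, 52.8 and 90.1 in Vwf+ Dnmt3a+/-, 64.9 and 116 in Vwf- WT, and 54.8 and 131 in Vwf- Dnmt3a+/-. Anln, the actin-binding scaffold of the contractile ring, was at 20.8 and 19.2 in Vwf+ WT, 22.5 and 47.8 in Vwf+ Dnmt3a+/-, 33.5 and 58.8 in Vwf- WT, and 34.8 and 56.96 in Vwf- Dnmt3a+/-. Prc1 was the most abundant of the 6 per length, with a mean TPM of 53.1, and Ect2 the least, at 11.5. In Ect2 and Anln the female Vwf+ WT pool was below the male one, at 0.77 and 0.92 times its level.

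The most abundant members act on chromosome structure. Top2a, the topoisomerase that untangles sister chromatids, was at 167 and 226 in Vwf+ WT, 153 and 386 in Vwf+ Dnmt3a+/-, 311 and 547 in Vwf- WT, and 204 and 588 in Vwf- Dnmt3a+/-. Mki67, whose product coats mitotic chromosomes and is the common marker of cycling cells, was at 253 and 368 in Vwf+ WT, 245 and 837 in Vwf+ Dnmt3a+/-, 472 and 1059 in Vwf- WT, and 424 and 1060.3 in Vwf- Dnmt3a+/-. In both, the female Vwf+ Dnmt3a+/- pool lay above both male Vwf- pools. Ncapd2 and Ncapg encode subunits of condensin I. Ncapd2 was at 116 and 135 in Vwf+ WT, 114 and 236 in Vwf+ Dnmt3a+/-, 177 and 304 in Vwf- WT, and 154 and 335 in Vwf- Dnmt3a+/-. Ncapg was at 16.7 and 25.1 in Vwf+ WT, 21.1 and 40.4 in Vwf+ Dnmt3a+/-, 35.5 and 50.8 in Vwf- WT, and 37.1 and 53.8 in Vwf- Dnmt3a+/-. Cdca2, which targets a phosphatase to chromatin at anaphase, was at 26.9 and 27.1 in Vwf+ WT, 30.1 and 62.6 in Vwf+ Dnmt3a+/-, 46.6 and 82.4 in Vwf- WT, and 46.6 and 83.1 in Vwf- Dnmt3a+/-. None of these 5 passed between fractions without the block, with differences from -0.88 in Mki67 to -0.71 in Ncapd2, and all 5 passed with it. Mki67 had a sex difference of 1.20 ± 0.14, 2.30-fold (edgeR adjusted p = 3.64e-05). By GENCODE M21, Ncapd2 hosts the small RNA gene Scarna10 on its own strand, which covers 3.78% of its exonic bases.

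Taking the fraction comparison pair by pair, each Vwf- library was set against the Vwf+ library of the same genotype and sex. All 36 genes were lower in Vwf+ in 4 of 4 such pairs, an order met by 17.6% of all tested genes. The median fold of Vwf- over Vwf+ was 1.76 in WT males, 2.25 in WT females, 1.39 in Dnmt3a+/- males and 1.39 in Dnmt3a+/- females. Ect2 had the highest fold in each pair, at 2.25, 4.31, 2.77 and 2.85 in that order. The lowest folds were 1.28 for Cdc25c, 1.33 for Plk1, 1.04 for Prc1 and 1.13 for Cdc20.

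**Figure D3:**
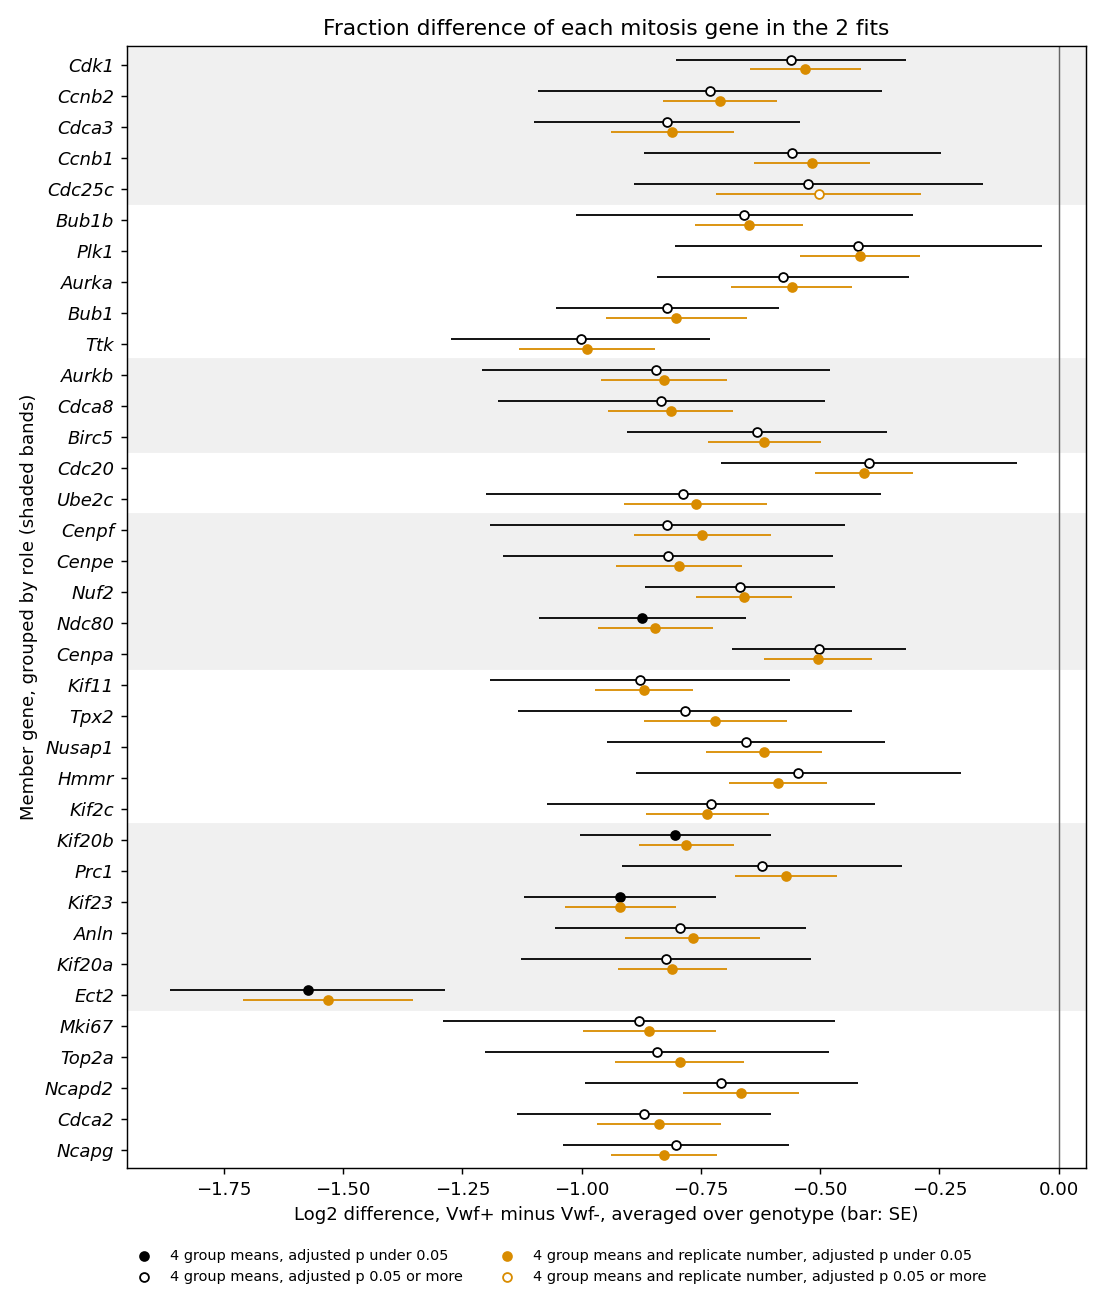
Log2 difference of Vwf+ minus Vwf-, averaged over genotype, with its SE, for the 36 genes without the replicate block (black) and with it (orange); filled symbols have an adjusted p under 0.05. The points move little between the fits, while the SE is smaller with the block, where 35 of 36 genes are filled against 4 without it.

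Fits of 1 sex alone gave the same direction for all 36 genes. In males 33 passed as lower in Vwf+ cells (all but Ccnb1, Cdc25c and Plk1), where 7.47% of genes tested there did, and the median was -0.66. In females 31 passed (all but Cdc25c, Plk1, Cdc20, Cenpa and Hmmr), where 3.39% did, and the median was -0.84. Each of these fits has 1 residual degree of freedom. DESeq2 without a block called 12 of the 36 as lower, where it called 3.44% of all tested genes as lower.

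Within WT cells the median log2 difference was -1.06 and no gene passed without the block, where 0.496% of all tested genes passed as lower and 20 of the 36 had an unadjusted p under 0.05 (12.4% of all tested genes). DESeq2 called 9 there, where it called 1.56% of all tested genes as lower. With the block, 34 of 36 passed (all but Cdc25c and Plk1), where 3.78% of all tested genes did. Within Dnmt3a+/- cells the median was -0.47 and again no gene passed without the block, where 0.17% of all tested genes did, 2 of the 36 had an unadjusted p under 0.05 (9.02% of all tested genes) and DESeq2 called Ect2 alone (0.754% of all tested genes). With the block 9 passed, where 1.85% of all tested genes did. These were Ccnb2, Ttk, Ndc80, Kif11, Kif20a, Kif20b, Kif23, Ect2 and Ncapg. The comparisons within genotype rest on different libraries.

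The difference between these comparisons was tested as the interaction of genotype with Vwf status. No gene passed, with or without the block, where 0.0% of all tested genes passed in either fit and in DESeq2. None of the 36 had an unadjusted p under 0.05 without the block and 11 had one with it, where 2.29% of all tested genes did. The interaction was above 0 in all 36 genes, with a median of 0.49 without the block and 0.45 with it. With a block for each genotype and sex, which leaves 2 residual degrees of freedom, Tpx2 passed, where 0.0188% of all tested genes passed in that direction. With the replicate block and 1 library left out, the median ran from 0.23 to 0.74, highest without the male Vwf+ WT library. The median interaction without the female Vwf+ Dnmt3a+/- library was -0.14 without the block, where sexes are then unequal between groups, and 0.32 with it.

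**Figure D4:**
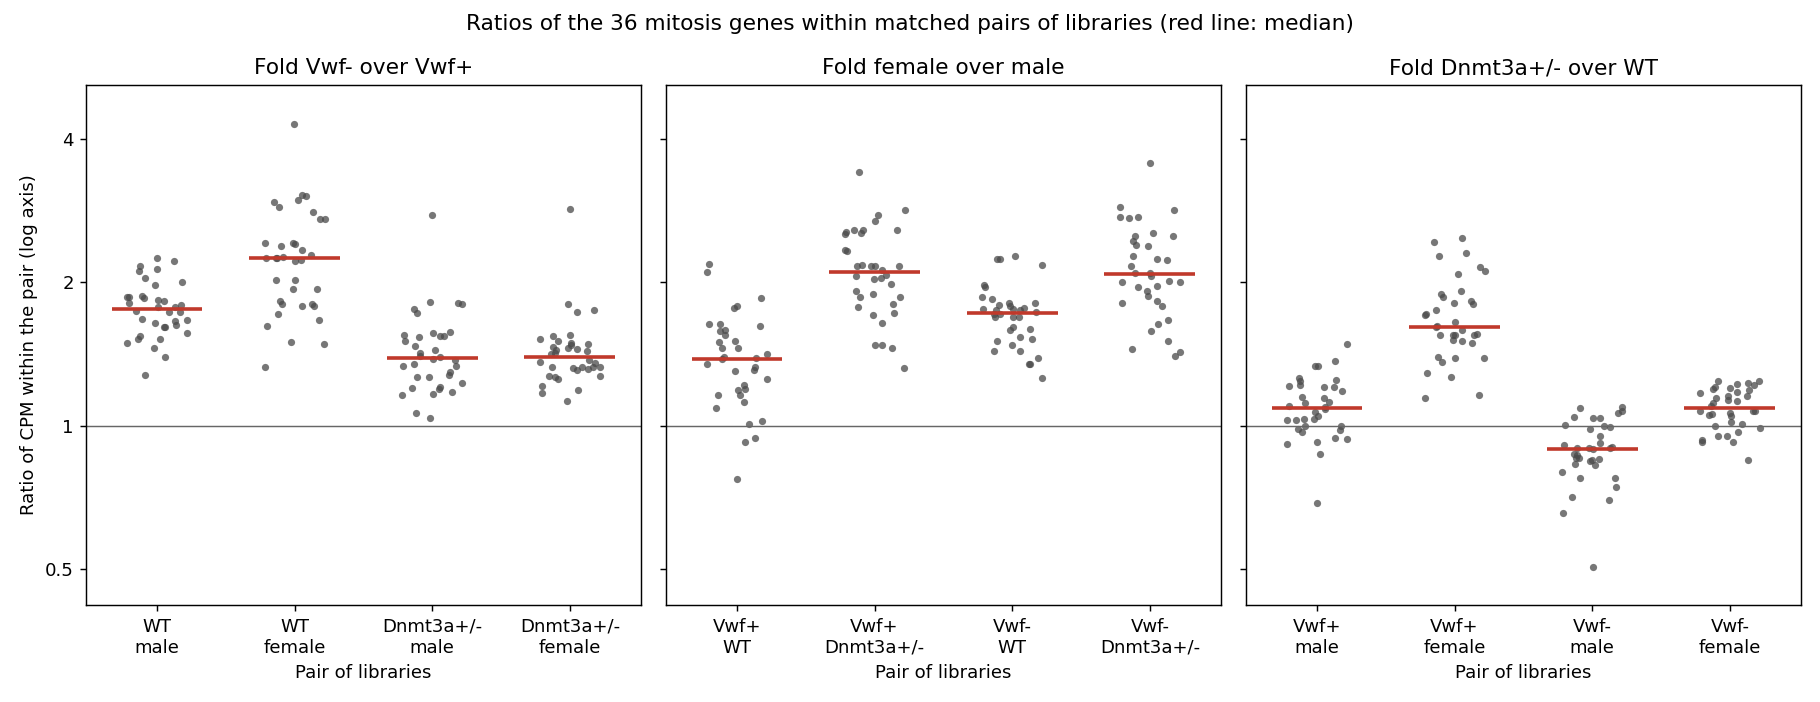
CPM ratios (log axis) of the 36 genes within matched pairs of libraries, for Vwf- over Vwf+ (left), female over male (middle) and Dnmt3a+/- over WT (right), with the median as a red line. All points of the left panel lie above 1, and the medians of the right panel run from 0.895 to 1.62.

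In the sex comparison, 33 of 36 genes were higher in the female pool in 4 of 4 groups, an order met by 15.7% of all tested genes. The exceptions were Bub1, Ect2 and Anln, each in Vwf+ WT cells. The same 33 genes were also lower in Vwf+ in every pair, and both orders together were met by 4.79% of all tested genes. The median fold of female over male was 1.38 in Vwf+ WT, 2.10 in Vwf+ Dnmt3a+/-, 1.72 in Vwf- WT and 2.08 in Vwf- Dnmt3a+/- cells. All 4 female libraries lay above all 4 male libraries in 6 genes, namely Ccnb1, Ccnb2, Cdc25c, Plk1, Cdc20 and Hmmr, and in 5.35% of all tested genes. By role the median sex difference was lowest for the centromere and kinetochore genes, at 0.54, and highest for Cdc20 with Ube2c, at 1.08. DESeq2 called all 36 as higher, where it called 7.23% of all tested genes so. A limma fit on log2(TPM + 1) called 15, where it called 0.584% of all tested genes as higher.

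Other transcripts moved with sex as well. The nuclear RNA Malat1 took 0.974 to 1.97% of counts in male libraries and 0.446 to 0.585% in female libraries, without overlap. Of 12 stem cell markers, 2 passed as lower in female pools in edgeR and 0 as higher, where 4.92% and 5.62% of all tested genes did. These were Procr at -0.88 ± 0.11 and Fgd5 at -0.49 ± 0.10 on the log2 scale. The median of the 12 was -0.14, with 4 above 0, the highest being Tek at 0.30 ± 0.11. The part of these in the sex difference of the mitosis genes was not tested.

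Whether the sex difference depended on genotype was tested as an interaction, chosen after the values had been seen. It was above 0 in 35 of 36 genes, with a median of 0.42, and 2 passed as higher in Dnmt3a+/-, where 0.17% of all tested genes did. These were Tpx2 (chr2:152847964-152895321) at 0.90 ± 0.20 (edgeR adjusted p = 0.00883) and Top2a (chr11:98992943-99024189) at 0.81 ± 0.19 (adjusted p = 0.0202). DESeq2 called 1, and between 0 and 9 passed when single libraries were left out. The ratio of female to male was smaller in Vwf+ WT than in Vwf+ Dnmt3a+/- cells in all genes but Cenpa, an order met by 49.8% of all tested genes. The interaction of sex with Vwf status passed in no gene in edgeR, with 0 of the 36 at an unadjusted p under 0.05 and a median of -0.14, where 0.0377% of all tested genes passed.

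**Figure D5:**
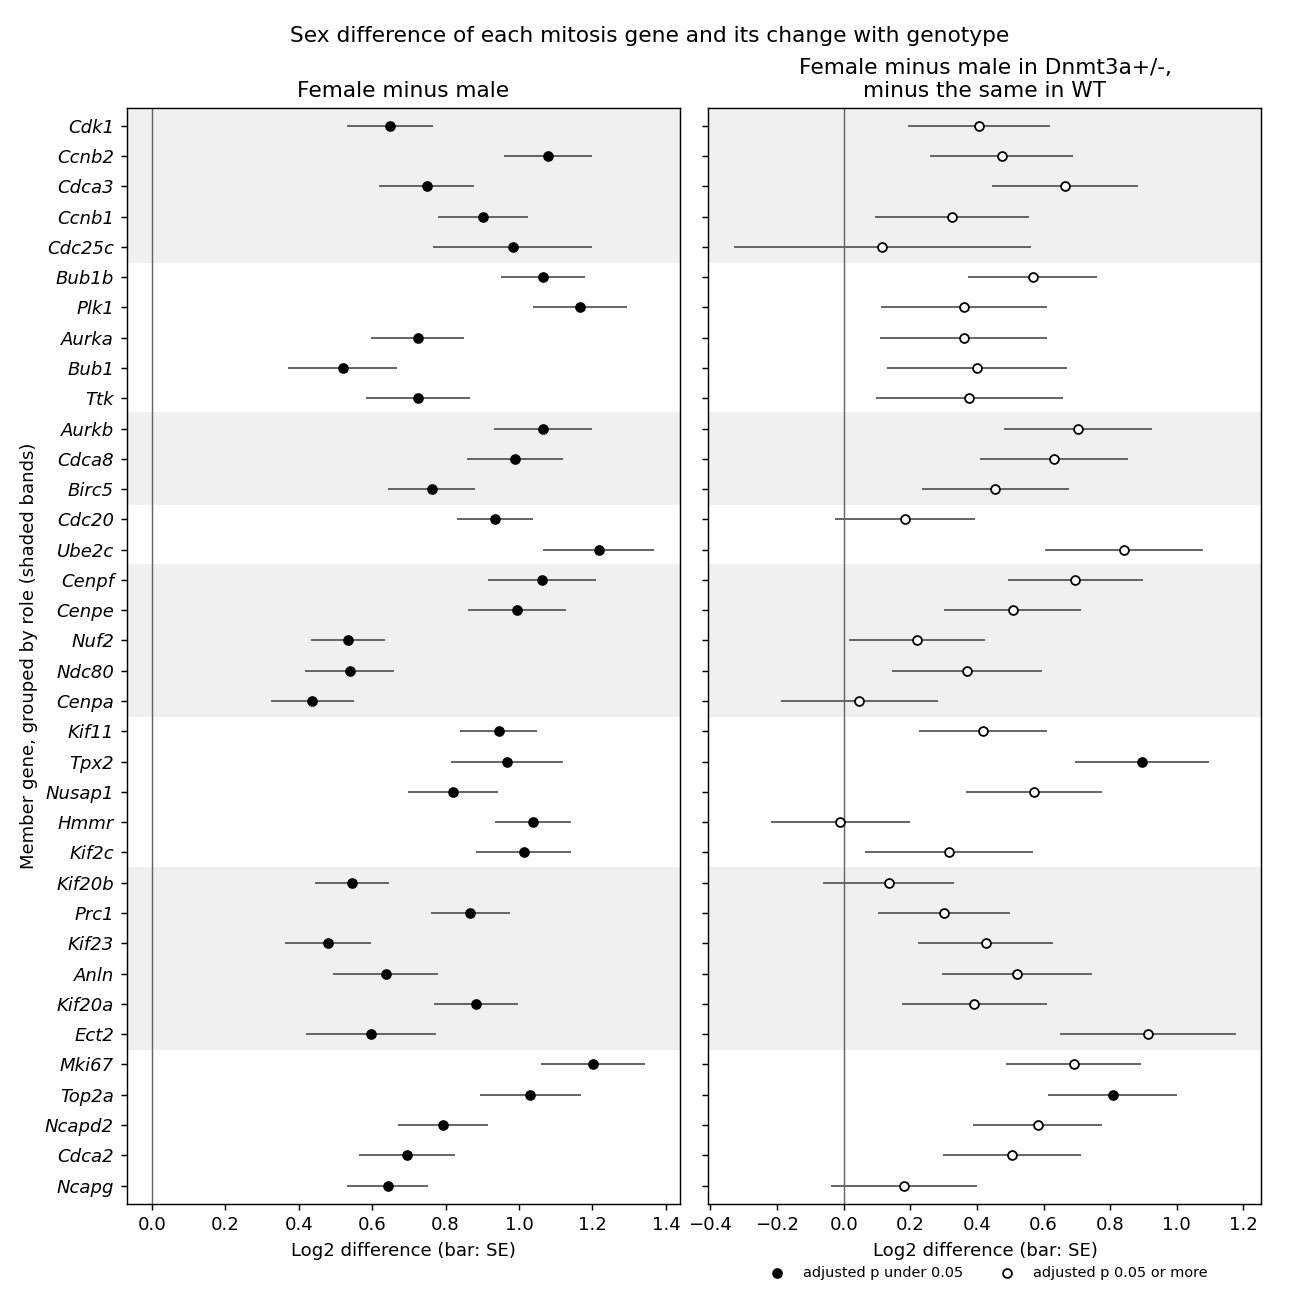
Log2 difference of female minus male pools (left) and the part by which that difference was larger in Dnmt3a+/- than in WT (right), with SE, for the 36 genes grouped by role; filled symbols have an adjusted p under 0.05. All 36 are filled on the left, and Tpx2 and Top2a on the right.

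No member passed between libraries labelled Dnmt3a+/- and WT in the filtered edgeR fits of all 8 libraries, with or without the block. Without the filter on low counts, Tpx2, Kif23, Mki67 and Cdca2 passed as higher in Vwf+ cells, where 0.136% of the 22801 genes tested there did. Averaged over fractions, the edgeR fit called 0 of 36, with 0 at an unadjusted p under 0.05, where 0.0% of all tested genes passed, and the median log2 difference was 0.28. With the block 0 passed and 12 had an unadjusted p under 0.05. Of all tested genes, 0.188% passed and 7.15% had such an unadjusted p. DESeq2 called 0, where it called 0.0754% of all tested genes. In Vwf+ cells all 36 were above 0, with a median of 0.51. There 0 passed, where 0.0% of all tested genes did, and Kif23 alone had an unadjusted p under 0.05. With the block 25 had one and 0 passed, where 5.92% of all tested genes had one and 0.0377% passed, and DESeq2 called 0 (0.0314% of all tested genes). In Vwf- cells the median was 0.03, and 0 passed in either fit or in DESeq2, with 0 at an unadjusted p under 0.05. Of all tested genes, 0.0% passed there without the block and 0.0126% with it and in DESeq2.

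The genotype values varied between the sexes in size and sign. The median fold of Dnmt3a+/- over WT was 1.09 in Vwf+ males, 1.62 in Vwf+ females, 0.895 in Vwf- males and 1.09 in Vwf- females. The Dnmt3a+/- pool was the higher in both Vwf+ pairs in 26 of 36 genes, where 25.2% of all tested genes had that order. In Vwf- cells it was the lower in males and the higher in females in 23 of 36, where 25.1% did. Within females all 36 genes were above 0 and Tpx2 alone passed as higher, where 0.348% of genes tested there did. Within males Ube2c and Top2a passed as lower, where 4.3% did. Without the female Vwf+ Dnmt3a+/- library the median in Vwf+ cells was -0.11 without the block, where 1 male pool is then set against a male and a female pool, and 0.27 with the block. With the block, the median in Vwf+ cells was 0.69 without the male Vwf+ WT library and 0.52 without the male Vwf+ Dnmt3a+/- library. The summed CPM of the 36 genes was 3258 in the female Vwf+ Dnmt3a+/- library and 1310.3 to 1785.5 in the other Vwf+ libraries. The same female library had the highest sum of 11 granulocyte and monocyte markers, at 465 CPM against 346 to 431 in the other Vwf+ libraries. Of these markers, Mpo was highest there of all 8 libraries, at 105 CPM against 78.1 in male Vwf+ WT. Ctsg, Ly6c2 and Csf1r were highest there as well, at 11.4, 8.43 and 9.70 CPM. Elane, Prtn3, Lyz2, Ms4a3, S100a8, S100a9 and Fcnb were not. Its sum of 12 megakaryocyte markers was also the highest, at 1000.3 CPM against 688 to 761 in the other Vwf+ libraries. The part of these markers in the result was not tested.

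Outside the 36 genes, a list of other G2/M and mitosis genes had 108 tested members. In the fraction comparison 12 of 108 passed as lower without the block and 66 with it, none passed as higher, and the median was -0.59. Of all tested genes, 1.68% passed as lower without the block and 5.97% with it. The 6 with the smallest p were Wee1 and Zwilch, Kif18a, Cit, Mad2l1 and Cenpo. Wee1, the kinase that holds CDK1 inactive, was at 76.4 and 72.7 in Vwf+ WT, 78.6 and 91.7 in Vwf+ Dnmt3a+/-, 118 and 122 in Vwf- WT, and 109 and 127 in Vwf- Dnmt3a+/- CPM, and it differed by -0.58 ± 0.10 (edgeR adjusted p = 0.00947). The spindle checkpoint genes Zwilch and Mad2l1 differed by -0.86 ± 0.17 and -0.67 ± 0.14. The kinesin Kif18a, which dampens chromosome movements, differed by -0.85 ± 0.17, the cytokinesis kinase Cit by -0.97 ± 0.21 and the centromere protein gene Cenpo by -0.86 ± 0.19. Between sexes 58 of 108 passed as higher and none as lower, with a median of 0.46, where 5.62% of all tested genes passed as higher.

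Of 50 S phase genes, which serve DNA replication, 7 passed as lower in Vwf+ cells without the block and 45 with it, with a median of -0.62. These shares were 1.68% and 5.97% of all tested genes. In 49 of 50 Vwf+ was lower in all 4 pairs, an order met by 17.6% of all tested genes. Between sexes 33 passed as higher, where 5.62% of all tested genes did, with a median of 0.52. Their promoters differed from those of the 36 genes, with a CHR match near the start in 5.41% and E2F core letters in 56.8% of 37 genes with a window. The other G2/M genes had a CHR match near the start in 36.4% of 88. A CCAAT match was less particular, in 62.2% of the S phase genes and 67.0% of the other G2/M genes, beside 77.4% of the members. These lists were drawn up with earlier results of the same libraries known.

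Markers of stem cells and of other cells were read beside the fraction difference. Of the 12 stem cell markers, Slamf1, Mecom, Fgd5, Hoxb5 and Ctnnal1 passed as higher in Vwf+ cells and none as lower. The summed level of the 12 was 2926 to 3322 CPM in Vwf+ and 2593 to 2963 CPM in Vwf- libraries. Of all tested genes, 1.68% passed as lower and 3.76% as higher in Vwf+ cells. Of 5 multipotent progenitor markers 3 passed as lower in Vwf+ cells (Flt3, Cd34 and Cd27). The summed level of the 5 was 129.6 to 147 CPM in Vwf+ and 295 to 371 CPM in Vwf- libraries, and Flt3 alone was at 4.35 to 9.59 against 35.2 to 46.7 CPM. Granulocyte and monocyte markers and megakaryocyte markers went the other way in their sums. The sum of 11 granulocyte and monocyte markers was 346 to 465 CPM in Vwf+ and 219 to 286 CPM in Vwf- libraries, with Elane and Prtn3 passing as higher in Vwf+ cells. The sum of 12 megakaryocyte markers was 688 to 1000.3 and 493 to 559 CPM, with Pf4 and Itgb3 passing as higher and Plek as lower. The part of such cells in the fraction difference of the mitosis genes was not tested. The hemoglobin genes Hba-a1 and Hbb-bt had 0 counts in all 8 libraries. The sum of 11 erythroid markers was 52.8 to 71.7 CPM in Vwf+ and 65.1 to 100.8 CPM in Vwf- libraries. The sum of 7 T and NK cell markers was 2.89 to 4.78 CPM in Vwf+ and 9.599 to 11.6 CPM in Vwf- libraries. Of these, Nkg7 passed as lower in Vwf+ cells, at -1.69 ± 0.27 on the log2 scale (edgeR adjusted p = 0.00547). The sum of 10 B cell markers was 18.6 to 24.2 and 17.8 to 38.04 CPM.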

How the data were processed

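RNA-seq was made from 8 pools of sorted LT-HSCs, in 4 groups of 2. The authors deposited a table of raw counts per gene and a table of TPM per gene, and both were used as deposited. Trim Galore, STAR, featureCounts, DESeq2 and the genome build mm10 are named in the submitters' processing notes. The annotation and strand setting of the counting are not given in the sources used here, so reads of genes that overlap on opposite strands may not be separable.

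Counts were tested with edgeR 4.0.16 (R 4.3.3) by the quasi-likelihood test. Low genes were removed by filterByExpr (minimum count 10). TMM factors were 0.958 to 1.06, and p-values were adjusted by Benjamini-Hochberg over 15917 genes, with a threshold of 0.05. The fit had 4 group means (4 residual degrees of freedom). CPM values are after TMM scaling. Female and male pools were compared with sex beside the group means. The labels give the same replicate numbers in every group, and number and sex coincide. Deviations of same-numbered libraries from their group means correlated at r = 0.134 to 0.296 over all tested genes in each pair of groups. A sex difference shared by the groups gives such a correlation, so it cannot show whether the pools were paired in any other way. Values with the replicate block are given beside the results they change. Whether Vwf+ and Vwf- pools came from the same mice was not analysed here.

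Alternatives were DESeq2 1.42.0, limma 3.58.1 on log2(TPM + 1) and log2(TPM + 0.1), library totals or upper quartiles in place of TMM, no filter, fits within a sex or of the 4 libraries of a contrast, a block for each genotype and sex, and each library left out. On simulated counts with these means and library sizes, the group-means fit recovered 60% of genes changed 2-fold and 74% of those changed 3-fold between fractions.

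The members, lists and tests were chosen with earlier results of these data known. All members could be named. Other G2/M genes were named as the 6 with the smallest p among those passing between fractions, and promoter stretches by the smallest p among members with a CHR match. Gene coordinates are GENCODE M21 (GRCm38), promoters RefSeq on GRCm38.p6. One progenitor marker of the lists is not reported here.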

Additional observations from a re-analysis of the deposited data

Results flagged for a closer look

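The difference between female and male pools was larger in Dnmt3a+/- than in WT cells for 2 genes, by a test of that difference itself. For Tpx2 it was larger by 0.90 ± 0.20 on the log2 scale (edgeR adjusted p = 0.00883), and for Top2a by 0.81 ± 0.19 (adjusted p = 0.0202). Each group has 1 pool of each sex, and the test was chosen after the values had been seen. Neither number is stable to the loss of a pool. Over all 36 genes, 0 passed without either Vwf+ WT library or without either Vwf- Dnmt3a+/- library, and 9 and 7 passed without the male and the female Vwf- WT library.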

How the results depend on the processing

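With the replicate block, 35 in place of 4 of the 36 genes passed as lower in Vwf+ cells, 34 in place of 0 within WT and 9 in place of 0 within Dnmt3a+/-, while genotype, alone and by Vwf status, stayed at 0. Of all tested genes 5.97%, 3.78% and 1.85% passed as lower in these 3 fits. With a block for each genotype and sex these counts were 35, 34 and 19 (7.99%, 5.55% and 3.02% of all tested genes), and 1 gene (Tpx2) passed for the interaction. Within males 33 and within females 31 passed between fractions, and 2 and 1 between genotypes. Without the filter 33, 32, 3 and 4 passed between fractions, within WT, within Dnmt3a+/- and between genotypes in Vwf+ cells (3.02%, 1.93%, 0.807% and 0.136% of all genes tested there in the same direction). DESeq2 called 12, 9 and 1 for the first 3 of these. Library totals called 1 within WT (Kif23; 0.421% of all tested genes), and the 4 WT libraries alone 21 (1.98%). Limma called 1 between fractions at either pseudocount (1.02% and 0.936%), and 15 and 21 between sexes at 1 and 0.1 (0.584% and 0.773%). For the interaction of sex with genotype, added after the data were seen, DESeq2 and library totals each called 1.

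Leaving out 1 library at a time leaves a group with 1 library, which is then assumed to vary like the rest. That group then holds 1 sex and is set against groups that hold both. Without the block, shifts in these fits cannot be told apart from the sex difference. Between fractions averaged over genotype, the median of the 36 genes ran from -1.08 to -0.40 without the block. It ran from -0.90 to -0.62 with the block. The share of all tested genes that passed as lower there also changed with the library left out, in both kinds of fit. The counts between fractions that follow therefore do not reflect the 36 genes alone. Without the block, 0 to 27 genes passed between fractions, lowest without the female Vwf+ WT and highest without the male Vwf- Dnmt3a+/- library; with it, 33 to 35. Counts were 0 to 8 within WT (26 to 34 with the block), 0 to 1 within Dnmt3a+/- (1 to 19), 0 between genotypes (0 to 10 averaged, 0 to 22 in Vwf+ and 0 in Vwf-), 0 for genotype by Vwf status (0 to 11), 32 to 36 between sexes, 0 to 9 for sex by genotype and 0 to 2 for sex by Vwf status. The median difference within Dnmt3a+/- ran from -1.103 without the female Vwf+ to 0.19 without the female Vwf- library (-0.65 to -0.33 with the block). The median between genotypes ran from -0.11 to 0.87 in Vwf+ cells (0.19 to 0.69) and from -0.65 to 0.46 in Vwf- cells (-0.18 to 0.10), and that of the interaction with Vwf status from -0.14 to 1.103 (0.23 to 0.74). Single genes were followed only between fractions averaged over genotype and between sexes, and there Plk1 alone changed sign, once. Its fraction difference was 0.030 without the female Vwf- Dnmt3a+/- library and -0.79 without the female Vwf+ Dnmt3a+/- one. The medians between fractions averaged over genotype, within WT and between sexes kept their direction under all alternatives run. The cause of these shifts was not tested. With 2 pools per group, the number of pools limits precision more than depth does.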
